A study of Mus musculus with 11 samples.

Results

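Described here are 10 genes grouped as epithelial-like identity genes of mouse alveolar macrophages. The group name is a label and not a result of these data. The group holds the keratins Krt79, Krt19, Krt18 and Krt8 and the surface genes Plet1, Cd9, Perp and Car4. It also holds the exchange factor gene Net1 and the protease inhibitor gene Serpinb1a. The 10 genes were chosen by name as genes reported to mark these cells, with earlier results of these data known. Most of them are keratins or membrane genes. All 10 were found among the 57180 genes of the count table and passed the filter on low counts. RNA was sequenced in bulk from alveolar macrophages sorted by flow cytometry from homogenised lungs of C57BL/6 wild-type pups on postnatal day 7. Hyperoxia meant 95% inspired oxygen over postnatal days 1 to 5, and the control pups of both sexes stayed in normoxia. The 11 libraries comprise 3 normoxia males (NM), 3 normoxia females (NF), 2 hyperoxia males (HM, with the replicate numbers 2 and 3) and 3 hyperoxia females (HF). The labels state neither the sorting gate nor whether a library is 1 pup or a pool, so the p-values rest on variation among libraries, part of which may be technical.

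Alveolar macrophages live in the air spaces, where they clear surfactant, debris and microbes. Keratins are intermediate filament proteins that assemble as pairs of a type I and a type II chain: Krt18 and Krt19 are type I, and Krt8 and Krt79 are type II. In simple epithelia the classical pair is Krt8 with Krt18, and Krt19 is a further type I chain of such epithelia. Plet1 and Car4 are held at the cell surface by a lipid anchor, Cd9 is a tetraspanin that organises membrane proteins, and Perp is a membrane protein of desmosomes that is induced by p53 family factors.

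Library totals ranged from 18087948 to 32579468 counts. The most counted gene of a library held 8.17% to 20.8% of them in normoxia and 5.27% to 13.2% in hyperoxia. It was the same gene without a symbol in every library except HF2, where it was mt-Rnr2. The numbers of genes detected fell into separate ranges, 26856 to 30173 in 7 libraries and 33158 to 35530 in NM3, NF3, HF2 and HF3; results that depend on these 4 are given both ways. Levels are CPM, read counts scaled to a common library size by edgeR's TMM method. All 28 other alveolar macrophage marker genes listed passed the filter. So did the 14 endothelial, 10 mesenchymal and 8 monocyte markers, so passing it does not establish the identity of the sort. Siglecf ranged from 157 to 377 CPM, Marco from 141 to 450 and Chil3 from 122 to 470 over the 11 libraries. Other markers of the list were scarce, among them Ear6, Cela1 and Car2 at means of 8.4, 3.9 and 3.4 CPM.

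Krt79 and Krt8 lie in the type II keratin cluster on chromosome 15, with Krt4 and Krt78 the neighbours of Krt79, and Krt19 lies on chromosome 11 between Krt15 and Krt9. The RefSeq promoter table (build GRCm38.p6) held an entry for 7 of the 10 genes. The 250 bases before the start site are printed for Krt79, the gene with the largest measured response, and for Plet1 and the second of 2 Net1 start sites, the only windows of the set with a match to any of 6 motifs searched on both strands. Capitals mark the matches.

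Krt79, chr15:101940325-101940574, minus strand: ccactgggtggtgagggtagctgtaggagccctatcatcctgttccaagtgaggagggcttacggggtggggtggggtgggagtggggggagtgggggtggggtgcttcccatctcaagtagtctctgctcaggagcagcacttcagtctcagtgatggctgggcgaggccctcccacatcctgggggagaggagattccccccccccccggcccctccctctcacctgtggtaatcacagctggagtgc

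Plet1, chr9:50494275-50494524, plus strand: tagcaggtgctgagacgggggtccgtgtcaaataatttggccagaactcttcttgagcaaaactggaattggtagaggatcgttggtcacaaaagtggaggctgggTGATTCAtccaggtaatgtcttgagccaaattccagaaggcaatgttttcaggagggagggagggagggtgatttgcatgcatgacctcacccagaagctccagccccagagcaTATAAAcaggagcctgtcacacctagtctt

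Net1, second start site, chr13:3893582-3893831, minus strand: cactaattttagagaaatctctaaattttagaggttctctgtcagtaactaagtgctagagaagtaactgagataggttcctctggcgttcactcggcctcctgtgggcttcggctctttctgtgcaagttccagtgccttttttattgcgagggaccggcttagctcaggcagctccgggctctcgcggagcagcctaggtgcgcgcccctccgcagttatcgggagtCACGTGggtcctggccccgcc

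The motifs were TATAAA (the core promoter box), CACGTG (the E-box form bound by BHLHE40), TGANTCA (for AP-1), GAGGAAGT (for PU.1), TTGCGCAA (for C/EBP) and the direct repeat bound by PPAR factors, found in 12.4%, 6.02%, 6.75%, 2.44%, 0.164% and 0.0335% of all 32851 windows of the same length. Plet1 held TGATTCA at position -144 and TATAAA at -30, counted back from the start site, Net1 held CACGTG at -21, and no match overlapped another. The Krt79 window held none of the 6, which says only that these letters are not in it.

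The levels differed widely between the 10 genes. Per kilobase of exon in normoxia (mean ± SD, n = 6), Cd9 was highest at 832 ± 166 CPM per kb, followed by Plet1 at 451 ± 122, Car4 at 372 ± 85.5, Krt19 at 216 ± 40.7, Net1 at 193 ± 47.7, Serpinb1a at 156 ± 34.0, Perp at 91.4 ± 7.04 and Krt79 at 13.8 ± 3.20. Krt8 at 0.651 ± 0.465 and Krt18 at 0.548 ± 0.184 CPM per kb came last. The normoxia ranges of neighbours in this order overlapped for Plet1 and Car4, for Krt19 and Net1, for Net1 and Serpinb1a, and for Krt8 and Krt18, and did not overlap for the other neighbours. In hyperoxia Krt19, at 124 ± 28.3 CPM per kb (n = 5), stood below Serpinb1a at 158 ± 21.1 and Net1 at 143 ± 21.0.

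**Figure D1:**
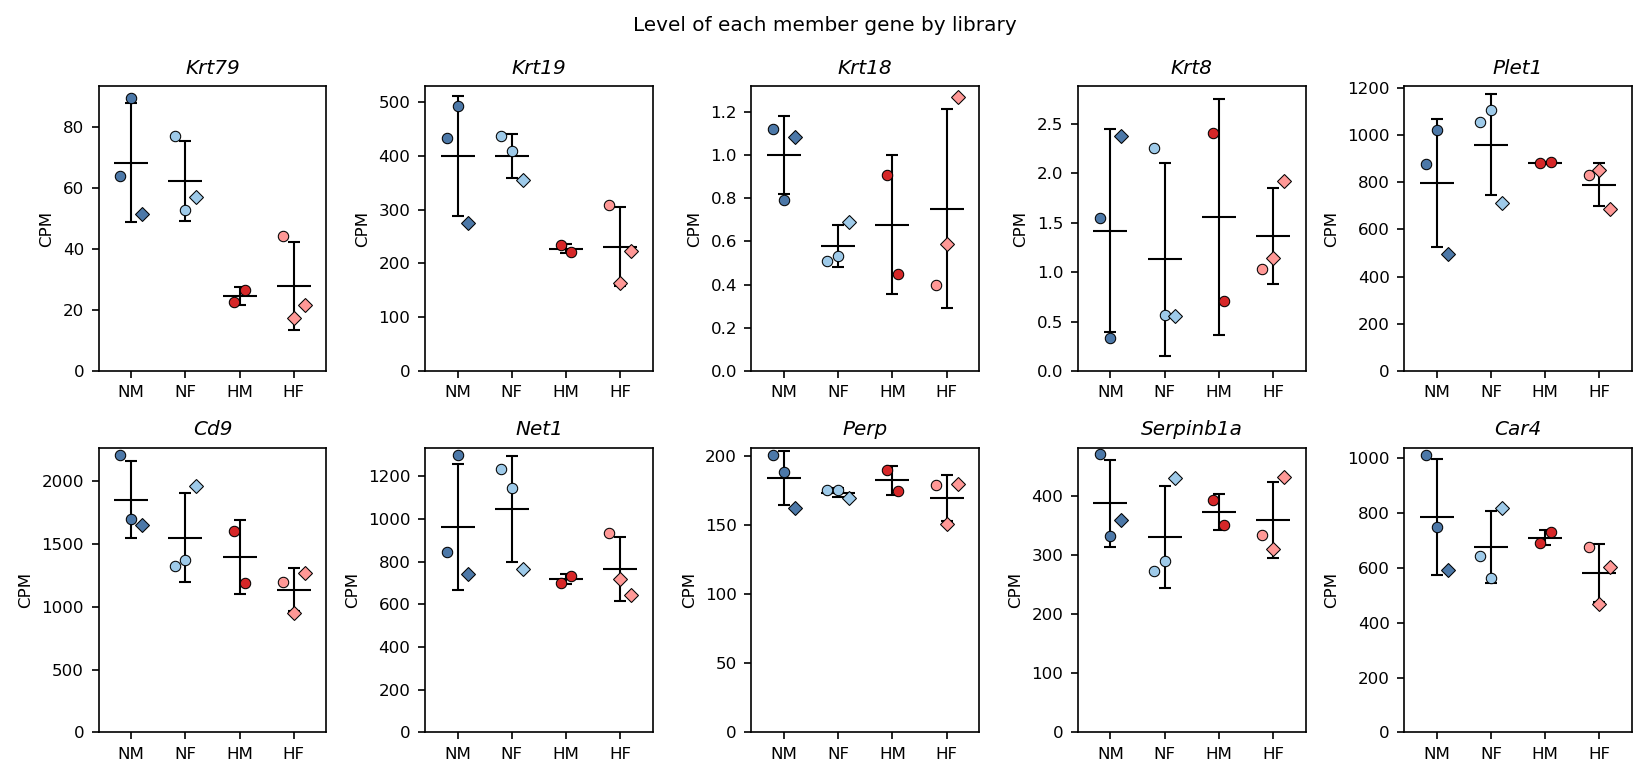
Level of each of the 10 genes in CPM (y axis, starting at 0) in the 11 libraries, by group; points are libraries (diamonds for the 4 libraries with most genes detected), and black bars are the group mean ± SD. The hyperoxia libraries lie below all normoxia libraries for Krt79, at 17.3 to 44.3 against 51.5 to 89.7 CPM, and overlap with them for the other 9 genes.

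Krt79 fell in hyperoxia. It was measured at 63.9, 89.7 and 51.5 CPM in the normoxia males, 77.2, 52.7 and 57.1 in the normoxia females, 22.5 and 26.6 in the hyperoxia males and 44.3, 17.3 and 21.8 in the hyperoxia females. All 5 hyperoxia libraries lay below all 6 normoxia libraries, which held for 0.396% of the 19948 genes tested; the highest of them was HF1. The mean fell from 65.4 ± 15.2 (SD, n = 6) to 26.5 ± 10.5 CPM (n = 5), a log2 fold change of -1.32 ± 0.24 (SE; 95% interval -1.83 to -0.82) or 2.50-fold lower, with an adjusted p of 0.0144 in edgeR's quasi-likelihood test. The estimate was -1.26 (adjusted p = 0.137) without HM2, -1.38 (0.103) without HM3 and -1.10 (0.0545) with NM3, NF3, HF2 and HF3 left out together, so the call ended there. The difference was -1.47 on the log2 scale within the 4 libraries (2 against 2) and -1.19 within the others (4 normoxia against 3 hyperoxia).

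Krt19 was lower in most hyperoxia libraries but did not pass the test. The normoxia males held 433, 492 and 275 CPM and the normoxia females 436, 408 and 356, against 234 and 221 in the hyperoxia males and 309, 163 and 222 in the hyperoxia females. Of the 5 hyperoxia libraries, 4 lay below every normoxia library, and HF1 lay above NM3. The means were 400 ± 75.5 (n = 6) and 229.7 ± 52.4 CPM (n = 5), a log2 difference of -0.80 ± 0.21 (95% interval -1.25 to -0.35; adjusted p = 0.116 in edgeR, unadjusted p = 0.00161). Krt19 passed the threshold without NM3 (-0.91, adjusted p = 0.0291), with no filter on low counts (0.0271), in DESeq2 (0.00103) and with a term for the 4 libraries with most genes detected (0.00428), the last chosen after seeing the data.

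The other keratin pair was barely present. Krt18 was measured at 0.509 to 1.12 CPM in normoxia and 0.398 to 1.27 in hyperoxia, from 12 to 37 counts a library. Krt8 was at 0.333 to 2.37 and 0.711 to 2.40 CPM, from 8 to 71 counts, where 3 counts correspond to 0.0880 to 0.160 CPM. The data therefore go against Krt8 and Krt18 as abundant transcripts of these sorted cells, while Krt19 exceeded 160 CPM in every library. The log2 differences were -0.09 ± 0.46 for Krt18 (95% interval -1.06 to 0.88) and 0.20 ± 0.52 for Krt8 (-0.90 to 1.30), both too wide to set apart a fall like that of Krt19 from no difference.

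Of 50 other keratin genes in the table, 16 passed the filter, and 3 reached a mean of 1 CPM: the type II keratins Krt80, Krt78 and Krt7. Krt80 was measured at 14.8, 16 and 9.50 CPM in the normoxia males, 24.2, 19.7 and 14.5 in the normoxia females, 20.1 and 21.7 in the hyperoxia males and 23.9, 23.3 and 16.3 in the hyperoxia females. Its groups overlapped, with a log2 difference of 0.38 ± 0.18 and an adjusted p of 0.625 in edgeR. Krt78 averaged 2.89 CPM (-0.15 ± 0.30) and Krt7 1.48 CPM (-0.36 ± 0.37). None of the 16 keratins passed the edgeR test, none was at an unadjusted p under 0.05, and none passed in DESeq2, which left 13 of them without an adjusted p; their median log2 difference was -0.05, beside -0.03 over all genes.

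**Figure D2:**
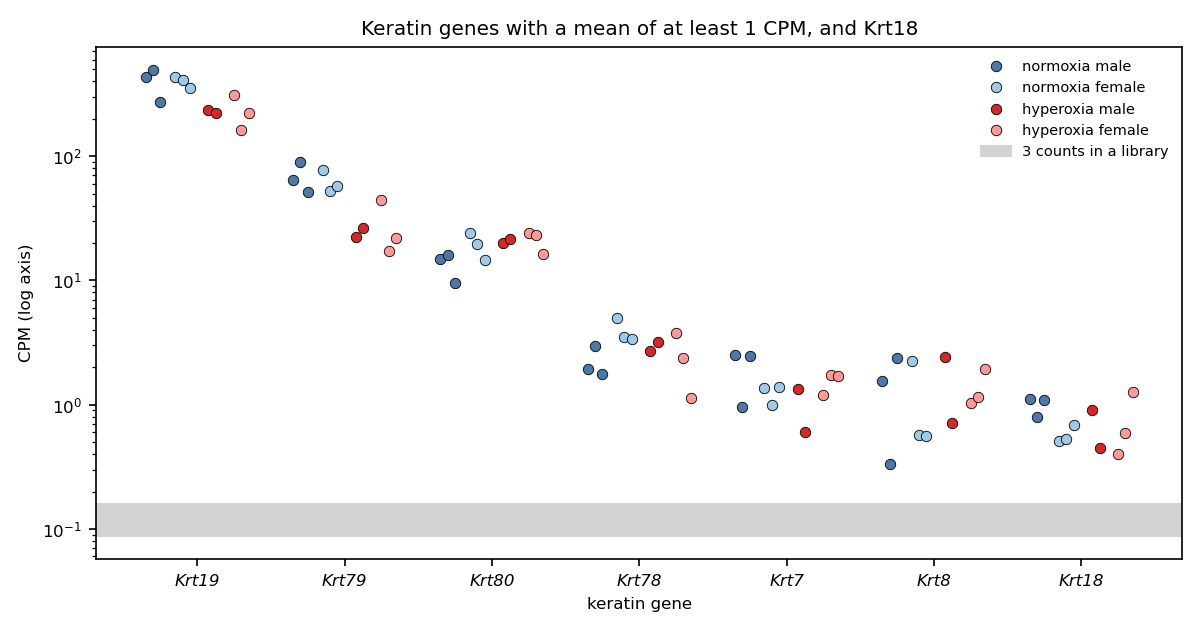
Keratin genes with a mean of at least 1 CPM, with Krt18 added: CPM on a log axis in each library, coloured by group; the grey band spans the CPM of 3 counts over the libraries. Krt19 and Krt79 shift downward in hyperoxia while Krt80 overlaps at 9.50 to 24.2 and 16.3 to 23.9 CPM, and Krt7, Krt8 and Krt18 sit near 1 CPM.

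Ratios between keratin genes, chosen after the values were seen, are given as a description with no test. Krt79 counts were 2.67 to 5.61 times those of Krt80 in normoxia and 0.744 to 1.85 times in hyperoxia. Krt19 counts were 18.01 to 30.7 times those of Krt80 in normoxia and 6.98 to 13.6 times in hyperoxia, and neither gene of this pair passed the test on its own. Krt79 over Krt19 overlapped between the oxygen groups, at 0.129 to 0.187 and 0.0963 to 0.143. Per kilobase, Krt19 was 10.9 to 14.5 times the sum of the type II genes Krt79, Krt80 and Krt78 in normoxia and 10.99 to 16.1 times in hyperoxia.

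The 4 surface genes kept overlapping levels. Cd9 was measured at 2203, 1701 and 1652 CPM in the normoxia males, 1321, 1369 and 1958 in the normoxia females, 1605 and 1188 in the hyperoxia males and 1198, 946.5 and 1264 in the hyperoxia females. Of the 5 hyperoxia libraries, 4 lay below every normoxia library and HM2 within their range; the log2 difference was -0.43 ± 0.20 (95% interval -0.86 to 0.00; adjusted p = 0.618 in edgeR). Plet1 spanned 494 to 1108 CPM in normoxia and 686 to 886 in hyperoxia, with a log2 difference of -0.07 ± 0.22 (-0.53 to 0.39). Its normoxia spread followed the number of genes detected: NM3 and NF3 averaged 604 CPM and the other 4 normoxia libraries 1016, a relation whose part in the comparison was not tested beyond the alternative fits. Car4, a carbonic anhydrase that converts carbon dioxide and bicarbonate outside the cell, spanned 564 to 1012 and 467.5 to 730 CPM (-0.18 ± 0.20; -0.61 to 0.25). Perp varied least, at 162 to 201 and 150.3 to 190 CPM, with a coefficient of variation of 7.70% in normoxia and a log2 difference of -0.02 ± 0.16 (-0.36 to 0.31).

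Net1 encodes a guanine nucleotide exchange factor, an activator of small GTPases that act on the cytoskeleton. It was measured at 846, 1301 and 744.5 CPM in the normoxia males, 1234, 1144 and 766 in the normoxia females, 701 and 734 in the hyperoxia males and 932, 718 and 645 in the hyperoxia females. Of the 5 hyperoxia libraries, 4 lay below every normoxia library and HF1 above 3 of them; the log2 difference was -0.44 ± 0.21 (95% interval -0.89 to 0.02; adjusted p = 0.642 in edgeR). NM3 and NF3 were again low, at a mean of 755 against 1131 CPM in the other normoxia libraries. Serpinb1a, an inhibitor of neutrophil serine proteases, spanned 272.5 to 471 and 311 to 432.5 CPM, with a log2 difference of 0.03 ± 0.19 (-0.38 to 0.44). The near copies Serpinb1b and Serpinb1c were listed at means of 0.508 and 0.409 CPM, and how reads shared between such copies were counted is not given in the sources used here.

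**Figure D3:**
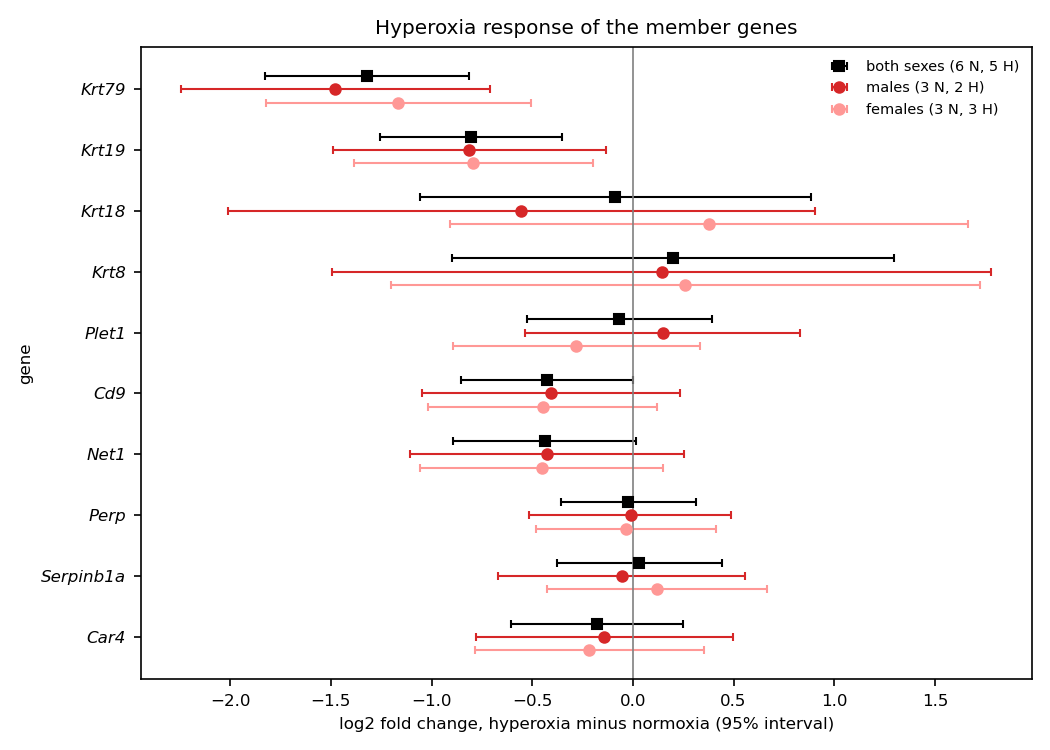
Log2 fold change, hyperoxia minus normoxia (x axis), with its 95% interval for each of the 10 genes, over both sexes (black squares), in males and in females. Krt79 at -1.32 and Krt19 at -0.80 have intervals below 0 in all 3 comparisons, and the intervals over both sexes of the other 8 reach 0 or cross it.

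Over both sexes, 1 of the 10 genes passed the threshold, Krt79, as lower. Of all genes tested, 0.707% passed in either direction and 0.165% passed as lower. With NM3, NF3, HF2 and HF3 left out together, or HM2 or HM3 alone, none passed, and without NM3 Krt19 passed as well. At an unadjusted p under 0.05, 2 of the 10 differed, both lower, beside 8.13% of all genes in either direction and 3.33% lower. The estimate was below 0 for 8 of 10, beside 54.1% of all genes, and the median was -0.13, beside -0.03. These shares are descriptions, since the 10 genes were chosen with earlier results of these data known.

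The sexes were compared next, since the series asks about sex. In males the Krt79 log2 difference was -1.48 ± 0.36 (adjusted p = 0.273 in edgeR) and in females -1.17 ± 0.31 (0.349). That of Krt19 was -0.81 ± 0.32 in males and -0.79 ± 0.28 in females. With NM3, NF3, HF2 and HF3 left out together, the Krt79 estimate was -1.64 in males and -0.55 in females. HF1 was then the only hyperoxia female, so the likeness of the sexes in the Krt79 response depends on these libraries. Within either sex 0 of 10 genes passed in edgeR, beside 0.0401% of all genes in males and 0.0401% in females. In each sex 2 of 10 were at an unadjusted p under 0.05 (5.5% of all genes in males, 4.53% in females). DESeq2 called 1 in each, Krt79, but the share of all genes it called within a sex is not given here, so that count has no background. The difference between the sexes in response was 0.31 ± 0.46 for Krt79 (95% interval -0.67 to 1.29) and 0.02 ± 0.42 for Krt19 (-0.86 to 0.91), intervals that hold differences as large as most of the response itself. For this interaction 0 of 10 passed in edgeR, beside 0% of all genes, none was at an unadjusted p under 0.05 (1.67% of all genes), and none passed in DESeq2. Between females and males over both oxygen groups 0 of 10 passed in edgeR, beside 0.0251% of all genes, again with none at an unadjusted p under 0.05 (3.27% of all genes) and none in DESeq2. The estimates for the 8 genes above 10 CPM were at most 0.28 in size, that of Cd9 at -0.28 ± 0.20.

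Across the 11 libraries, Krt79 and Krt19 varied together, with Pearson's r = 0.95 of log2 CPM, and r = 0.87 for the deviations from the 4 group means. Krt19 also followed Net1 (0.81, and 0.71 within groups). Cd9 and Serpinb1a gave 0.60 over all libraries and 0.90 within groups, and Net1 and Serpinb1a -0.62 and -0.71. These values describe libraries that share depth, composition and oxygen group, and carry no test.

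**Figure D4:**
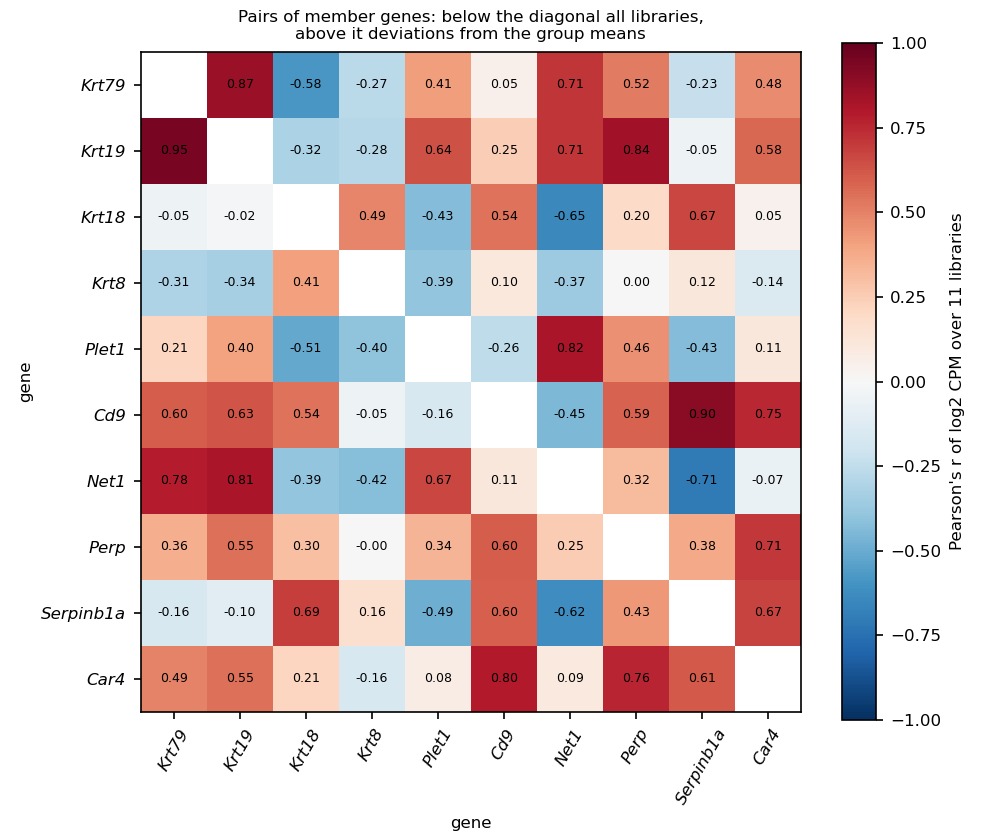
Pearson's r of log2 CPM between pairs of the 10 genes (both axes) over 11 libraries, over all libraries below the diagonal and for deviations from group means above it; red is positive and blue negative. Krt79, Krt19 and Net1 form a positive block at 0.78 to 0.95 below the diagonal.

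Among 11246 genes with a mean log2 CPM of at least 1, those most like Krt79 over the 11 libraries were Slpi (r = 0.97), a secreted protease inhibitor, Slc9a4 (0.96), a sodium-proton exchanger, and Siglecf (0.96), a lectin of alveolar macrophages and eosinophils. For Krt19 they were Acaa1b (0.98), a peroxisomal thiolase, Siglecf (0.97) and Fcgrt (0.96), the neonatal Fc receptor. Of these 5 genes Slpi (-1.57, adjusted p = 0.00553) and Slc9a4 (-1.53, 0.00134) passed the edgeR test and fell, and Siglecf (-0.69, adjusted p = 0.158), Acaa1b (-0.93, 0.0569) and Fcgrt (-0.48, 0.432) did not. The genes most like Plet1 were Trappc8, Rhog and Gnai2 (0.99, 0.99 and 0.98), and those most like Cd9 were Fbxo6, Tmsb10 and Tyrobp (0.995, 0.99 and 0.99). Net1 was close to Bcar3 and Ubald1 (0.97 and 0.96), Serpinb1a to Ccl6, Ndufa5 and Rnf7 (0.97 each), and Car4 to Pdcd5, Arpc5l and Nedd8 (0.92 each). Perp was closest to Hist1h1c and Ndufv3 (0.96 and 0.95) and to a gene with no symbol (0.94). None of the genes named for Plet1, Cd9, Net1, Serpinb1a, Car4 and Perp passed the edgeR test. All these genes were picked by likeness over the same libraries, with the oxygen difference left in. Whether they passed therefore follows in part from that choice and is no separate finding. For the scarce Krt18 (Narfl, Dtwd1, Epha8) and Krt8 (D030056L22Rik, Myh14, Gm38345) r was at most 0.93 and is no finding at their counts.

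Of the 28 other alveolar macrophage markers, 7 fell and 0 rose in the edgeR test (0.165% of all genes fell), and 21 did not pass. The estimate was below 0 for 25, beside 54.1% of all genes, and the median was -0.47, beside -0.03; Marco was at 0.18 ± 0.23. The fatty acid binding protein genes Fabp1 (56.6 ± 8.73 to 10.4 ± 4.19 CPM, log2 -2.47, adjusted p = 0.000158) and Fabp4 (-1.53, 0.0377), the lipid droplet gene Cidec (-1.35, 0.00901), the cathepsin gene Ctsk (-1.81, 0.00189), the zinc transporter gene Slc39a2 (-1.04, 0.0139), Cd2 (-1.14, 0.00903) and the ribonuclease gene Ear1 (-0.98, 0.0161) passed. With NM3, NF3, HF2 and HF3 left out together 3 fell, and without HM2 and HM3 in turn 2 and 3. Fabp1 and Ctsk passed under all 17 alternatives, while Fabp4 lost its call in 11 of them (RLE size factors included), Ear1 in 4, Slc39a2 and Cd2 in 3 each and Cidec in 2. In bulk RNA, fewer cells of a type and less RNA per cell cannot be told apart.

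Genes of junctions, the desmosomal and tight-junction proteins that keratins and Perp work with in epithelia, moved both ways. Of 20 tested, Pkp2, a desmosomal plaque gene, rose from 1.21 ± 0.52 to 4.10 ± 1.11 CPM (log2 1.75, adjusted p = 0.0161 in edgeR), and St14, a membrane serine protease gene, rose from 2.63 ± 0.52 to 6.95 ± 0.76 CPM (1.419, 0.0018). The tight-junction gene Cldn1 fell from 21.5 ± 6.27 to 9.36 ± 1.98 CPM (-1.22, 0.0139). The median of the list was -0.16. Pkp2 lost its call without NF1, NF2, HM2 or HM3 and with NM3, NF3, HF2 and HF3 left out together, St14 also without those 4, and Cldn1 without HM2 or HM3. Beside these counts, 0.541% of all genes rose and 0.165% fell.

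In 4 further gene families 0 genes passed in edgeR. Beside them, 8.13% of all genes were at an unadjusted p under 0.05 and DESeq2 called 2.24%. Of 16 tetraspanins and their partners, 2 were lower and 3 higher at an unadjusted p under 0.05, and DESeq2 called 3 (median 0.03). Of 7 clade B serpins none was at such a p and DESeq2 called 0 (median 0.29), and of 9 other carbonic anhydrases 1 was lower and DESeq2 called 0 (median 0.09). Of 18 genes of the p53 pathway 3 were higher and DESeq2 called 1 (median 0.10). The genes of smallest p in them were Tspan3 (0.66 ± 0.16, adjusted p = 0.0841), Serpinb9 (0.29 ± 0.16, 0.756), Car15 (-1.37 ± 0.64, 0.602) and Phlda3 (0.69 ± 0.17, 0.0841).

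Markers of other lung cells were read beside these results, since several of the 10 genes are also made by epithelium, and Car4 by capillary endothelium. No gene of the 7 lists passed in edgeR, and their part in the results was not tested. The shares over all genes to set beside the counts are 54.1% with an estimate below 0, 8.13% at an unadjusted p under 0.05 and 2.24% called by DESeq2. Of the 25 lung epithelial markers, 9 estimates were below 0, with a median of 0.29; 1 was lower and 4 higher at an unadjusted p under 0.05, and DESeq2 called 1, as lower. Their summed level was 293 to 522 CPM in normoxia and 507 to 609 in hyperoxia, most of it from Cdh1 (214 ± 66.2 and 333 ± 54.1 CPM), Abca3 (81.5 ± 27.3 and 86.7 ± 15.6) and the surfactant gene Sftpc (31.9 ± 15.8 and 50.2 ± 25.9). Epcam had the smallest p (-0.79, adjusted p = 0.176 in edgeR), and Sftpb was close to it in the other direction (0.95, 0.178). The sums overlapped between the oxygen groups and were mostly higher in hyperoxia. Whether sums led by Cdh1 measure epithelial cells in the sort was not tested.

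The 14 endothelial markers all had estimates below 0, beside 54.1% of all genes (median -0.67; 2 lower at an unadjusted p under 0.05, 1 called by DESeq2) and summed to 130 to 207 CPM in normoxia and 112 to 155 in hyperoxia, led by Vwf (98.3 ± 30.5 and 88.9 ± 26.7), Cdh5 and Pecam1, with the smallest p for Cldn5 (-1.22, adjusted p = 0.154 in edgeR). The 10 mesenchymal markers (median -0.29; 3 lower at an unadjusted p under 0.05 and 0 called by DESeq2) summed to 38.1 to 97.1 and 27.1 to 79.2 CPM, led by Col3a1, Eln and Col1a1; Eln had the smallest p (-0.86, 0.211). The 8 monocyte markers (median 0.71, none below 0; 3 higher at such a p, 0 called by DESeq2) summed to 582 to 2336 and 1138 to 2280 CPM, led by Fn1 (1272 ± 643 and 1787 ± 529), Ccr2 and Cx3cr1, with the smallest p for Vcan (0.94, 0.126). Most of that sum was Fn1, with Ccr2 next at 26.9 ± 8.25 and 43.4 ± 13.15 CPM. Whether the sum measures monocytes in the sort was not tested. The 7 interstitial macrophage markers (median 1.08, none below 0; 4 higher, 1 called by DESeq2) summed to 16.5 to 37.3 and 21.1 to 103 CPM, led by C1qb (7.39 ± 2.31 and 14.1 ± 7.46), C1qa and C1qc. The 7 neutrophil markers (median 0.03; 1 lower and 1 higher, 1 called by DESeq2) summed to 33.1 to 62.1 and 31.3 to 38.1 CPM, led by Csf3r (-1.02, 0.0897), S100a8 and Cxcr2, and 1 of the 9 listed was at 0 in every library. The 7 erythroid markers (median -1.28, all below 0; none at such a p, 0 called by DESeq2) summed to 101 to 1218 and 54.0 to 308 CPM, led by Hba-a2, Hbb-bs and Hba-a1.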

How the data were processed

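Alveolar macrophage RNA was sequenced in 11 bulk libraries. Per the labels' protocols, cDNA came from a low-input full-length kit, the first 8 nucleotides of reads were molecular identifiers, which were trimmed, and some unnamed libraries were cleared of short fragments and resequenced. The authors deposited whole-number counts per Ensembl gene, not normalized; whether identifiers were collapsed is not given in the sources used here. The submitters' processing notes name Trim Galore 0.6.7, STAR 2.7.9, Salmon 1.10.1, DESeq2 1.42, R 4.3.2 and build mm39. A symbol was matched for 51884 of 57180 identifiers. Exon lengths are from GENCODE for GRCm38 and merge all annotated exons of a gene, 4753 bases for Krt79 and 5217 for Net1. Such lengths can exceed that of the transcript present, so levels per kilobase, their order and ratios between genes are approximate.

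The counts were filtered with filterByExpr (minimum count 10, total 15), leaving 19948 genes, scaled by TMM and fitted with edgeR 4.0.16 (robust quasi-likelihood, 1 mean per group, all 11 libraries) in R 4.3.3. P-values were Benjamini-Hochberg adjusted over all genes tested, with a threshold of 0.05. DESeq2 1.42.0 (an adjusted p of NA kept as NA), RLE factors, no filter, a replicate block, each sex alone and left-out libraries were alternatives. Correlations used log2 CPM with a prior count of 2. Named genes are the 10 genes, the genes of each list past the test or of smallest p, other keratins of at least 1 CPM, the 3 most abundant markers of each other cell type and the 3 genes most like each of the 10; a few results under this rule, among them a gene list with 1 gene past the test, are not reported here. The 10 genes and all lists were chosen with earlier results of these data known.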

Additional observations from a re-analysis of the deposited data

Results flagged for a closer look

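Among 20 sets of libraries tested (10 genes in each oxygen group), 1 held a library far from the others: Plet1 was lowest in HF3, at 686.1 CPM, where the other 4 hyperoxia libraries lay between 830 and 886 CPM. By Dixon's criterion chance marks about 1 set in 20.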

How the results depend on the processing

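Over both sexes, 2 of the 10 genes passed with no filter on low counts, in DESeq2 and with the term for the 4 libraries with most genes detected, and 0 without those 4 libraries; leaving out 1 library gave 0 to 2. The second gene was Krt19. The genes called in all were 302 with no filter, 446 in DESeq2 (65.7% of them higher, against 76.6% of 141 in edgeR), 256 with the replicate block, 23 without the 4 libraries, 501 with their term and 36 to 195 with 1 library left out. In males, 1 gene passed with no filter, in DESeq2, without the 4 libraries, with each sex fitted alone and with the term; in females, 1 with no filter and 1 in DESeq2. Krt79 and Krt19 kept a negative estimate over both sexes under every alternative run. The cause of these changes was not tested, and the shares of all genes called within each sex by these alternatives are not given here.

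Estimates near 0 changed sign. Over both sexes this held for Plet1 with the replicate block (0.014) and Serpinb1a with RLE factors (-0.001) and in DESeq2 (-0.001); with 1 library left out, Krt18 spanned -0.391 to 0.13, Krt8 -0.348 to 0.703, Plet1 -0.2 to 0.042, Perp -0.071 to 0.017 and Serpinb1a -0.049 to 0.149. In males, Plet1 was -0.101 without the 4 libraries, Perp 0.001 with no filter and 0.028 with the replicate block, and Serpinb1a 0.007 with the term; with 1 library left out, Krt8 spanned -0.944 to 0.804, Plet1 -0.097 to 0.365, Perp -0.091 to 0.067, Serpinb1a -0.156 to 0.082 and Car4 -0.313 to 0.066. In females without the 4 libraries, Krt18 was -0.385, Krt8 -0.464, Perp 0.028 and Car4 0.165, and Perp was 0.012 with the term; with 1 library left out, Krt18 spanned -0.223 to 0.68, Krt8 -0.065 to 1.264, Perp -0.077 to 0.047 and Serpinb1a -0.038 to 0.358. The difference in response between the sexes for Krt19 was -0.014 with no filter and -0.13 with the replicate block, and spanned -0.245 to 0.223 (Krt79 -0.197 to 0.561) with 1 library left out. The female minus male difference with the replicate block was -0.13 for Krt79 and -0.051 for Krt19, with ranges of -0.232 to 0.146 and -0.121 to 0.112.

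Same-numbered libraries correlated at -0.358 to 0.615 in their deviations from the group means, and differently numbered ones at -0.646 to 0.43. Of 15 same-numbered pairs 7 were over 0.1, and 6 of 11 libraries were best with their own number. With 2 hyperoxia males, the deviations of HM2 and HM3 mirror each other by construction (0.305 and -0.305 with NM1). Same-numbered pairs with HM2 or HM3 were all negative, and those over 0.1 all lay among the other groups. These values do not settle whether the numbers are pairs, and the main fit did not use them. With the block, 1 of the 10 genes still passed over both sexes. Where an arm was left with 1 hyperoxia male, that library was assumed to vary like the other groups. Depth limits Krt8 and Krt18, at 8 to 71 and 12 to 37 counts.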
